A study of Homo sapiens with 36 samples.

Results

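The proteasome subunit genes were described here in HepG2 cells, an established human hepatoma line. Members were all genes whose symbol is PSMA, PSMB, PSMC or PSMD followed by a number, and whose counts over the 36 libraries summed to at least 360. Of the 18932 genes in the table, 39 carried such a symbol and 37 met the count limit, namely PSMA1 to PSMA7, PSMB1 to PSMB10, PSMC1 to PSMC6 and PSMD1 to PSMD14. PSMB11, the thymus-specific beta subunit, lay just outside the limit with a summed count of 12, and PSMB9 was the lowest member inside it with 1556. PSMA8, a testis-specific alpha subunit, had a count of 0, which allows up to 0.00985 CPM (3 counts over all libraries together, with CPM for counts scaled to library size). All 37 members passed the filter on low counts in each model.

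The cells received docosahexaenoic acid (DHA, 50 µM), an n-3 long-chain polyunsaturated fatty acid, propionate (PRO, 70 µM), a short-chain fatty acid, protocatechuic acid (PCA, 20 µM), a phenolic acid, DHA + PRO, DHA + PCA, or vehicle (Ctrl), for 6 h or 24 h. Each of the 12 groups had 3 libraries from independent cell cultures, and each library pooled the RNA of replicate wells. All groups, Ctrl included, were kept in serum-free DMEM during the incubation, and Ctrl received bovine serum albumin and the solvents ethanol and DMSO. HepG2 is a tumour-derived line, and 1 line was studied. The total count per library ran from 4659744 to 10788964 at 6 h (median 8667650) and from 5617341 to 42326734 at 24 h (median 6871860.5), the highest being replicate 2 of DHA + PRO. Hepatocyte transcripts (ALB, APOA1, APOB, TTR, AFP, SERPINA1, TF and FGB) were counted in all 36 libraries. Of 6 markers of other cell types, the leukocyte gene PTPRC was at 0 in 34 libraries, CD3E in 35 and the endothelial gene PECAM1 in 16. COL1A1 and COL1A2 reached at most 8.81 and 7.17 CPM, and CD68, which is not restricted to macrophages, ran from 32.7 to 71.5.

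The proteasome is the protease that degrades most ubiquitin-tagged proteins in the cytosol and nucleus. Its core particle is a stack of rings, in which alpha subunits (PSMA) form the gate and beta subunits (PSMB) enclose the active sites, and its regulatory particle has a base of ATPases (PSMC) that unfold substrates and a lid of PSMD subunits that takes off ubiquitin. PSMB8, PSMB9 and PSMB10 replace the constitutive catalytic subunits PSMB5, PSMB6 and PSMB7 in the immunoproteasome, which interferon induces and which favours peptides for antigen presentation. Transcription of the constitutive genes is known to be raised by NFE2L1 (NRF1), a factor that acts through antioxidant response elements when proteasome activity falls.

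Since members changed together with time and PSMB9 changed the other way, the promoters of the 3 members with the largest falls and of PSMB9 are shown. Each is the 250 bases before the RefSeq start in GRCh38.p14, on the plus strand: PSMD2 at chr3:184298991-184299240, PSMD14 at chr2:161308175-161308424, PSMB3 at chr17:38752491-38752740 and PSMB9 at chr6:32853942-32854191. Capitals mark matches to the antioxidant response element core TGACNNNGC or to the CCAAT box, on either strand.
PSMD2: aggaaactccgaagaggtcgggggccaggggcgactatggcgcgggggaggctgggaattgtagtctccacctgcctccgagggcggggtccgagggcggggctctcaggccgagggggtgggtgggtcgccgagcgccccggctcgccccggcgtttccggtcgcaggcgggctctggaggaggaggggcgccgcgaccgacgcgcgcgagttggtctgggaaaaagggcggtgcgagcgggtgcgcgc
PSMD14: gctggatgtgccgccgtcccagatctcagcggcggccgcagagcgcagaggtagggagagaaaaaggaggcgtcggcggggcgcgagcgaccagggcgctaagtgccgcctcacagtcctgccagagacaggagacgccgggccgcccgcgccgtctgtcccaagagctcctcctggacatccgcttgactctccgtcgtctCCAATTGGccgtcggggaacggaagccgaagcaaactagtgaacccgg
PSMB3: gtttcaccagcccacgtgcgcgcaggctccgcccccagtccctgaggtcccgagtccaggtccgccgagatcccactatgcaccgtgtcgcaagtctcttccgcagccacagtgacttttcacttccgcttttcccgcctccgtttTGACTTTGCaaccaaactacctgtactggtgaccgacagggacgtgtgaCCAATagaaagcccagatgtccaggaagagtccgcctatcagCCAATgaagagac
PSMB9: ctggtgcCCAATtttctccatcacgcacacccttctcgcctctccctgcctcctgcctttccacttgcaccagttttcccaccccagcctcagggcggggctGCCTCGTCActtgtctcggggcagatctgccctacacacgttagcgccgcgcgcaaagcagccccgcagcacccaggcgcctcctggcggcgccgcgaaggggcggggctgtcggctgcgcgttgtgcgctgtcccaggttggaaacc

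PSMB3 held an antioxidant response element core and 2 CCAAT boxes in this window. PSMD14 held CCAAT on both strands within 1 overlapping run, PSMB9 held a core on the reverse strand and a CCAAT box, and PSMD2 held no match to either. RefSeq promoters were found for 32 of the 37 members, and windows of 300 bases (250 before and 50 after the start) were searched in these. The core was in 8 of 32 members (25%) and in 13.3% of 35116 promoters, and CCAAT was in 16 of 32 (50%) and in 34.6%. Members were counted by their first start only, while the 35116 promoters include every listed start of a gene. The shares are therefore per gene for members and per start for the rest. No match of one motif overlapped a match of the other in the 4 windows printed, and a match describes the sequence only.

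The subunit mRNAs were abundant. Levels between genes are compared as RPKM (CPM per kilobase of counted length), averaged over the 36 libraries, and changes between samples as CPM, both on TMM-scaled library sizes. The median member had 63.1 RPKM and the median tested gene 11.4, and 35 of 37 members lay above the latter. The exceptions were PSMB9 and PSMD5, an assembly chaperone of the base. By class, the median level was 178 RPKM for the structural beta subunits, 121 for the catalytic beta subunits and 99.5 for the alpha ring. It was 61.9 RPKM for the scaffold and ubiquitin receptor subunits of the base (PSMD1, PSMD2 and PSMD4), 58.5 for the lid and 55.9 for the ATPases. The immunoproteasome subunits had a median of 21.6 RPKM, and the base assembly chaperones (PSMD5, PSMD9 and PSMD10) had 12.6.

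PSMB5, which carries the chymotrypsin-like activity, had the highest level of all members, with 468 ± 33.1 RPKM (SD, n = 36), and it ran from 406 to 569 over the libraries. The other catalytic subunits were lower, PSMB7 (trypsin-like) with 121 ± 15.2 RPKM and PSMB6 (caspase-like) with 99.7 ± 18.2, and their ranges over libraries overlapped. PSMB9 was the lowest member with 4.74 ± 1.199 RPKM, below PSMB8 (22.9 ± 2.11) and PSMB10 (21.6 ± 3.59), whose ranges overlapped each other. In the alpha ring the mean level ran from 21.9 RPKM for PSMA5 to 301 for PSMA6, and among the structural beta subunits from 41.9 for PSMB2 to 248.8 for PSMB1. The ATPases ran from 20.3 (PSMC1) to 111 RPKM (PSMC5), the base scaffold and receptor from 54.4 (PSMD1) to 88.9 (PSMD4), the lid from 36.5 (PSMD11) to 96.9 (PSMD7), and the assembly chaperones from 11.2 (PSMD5) to 29.2 (PSMD10). Subunits that enter the particle in equal numbers thus differed in RPKM within each ring, as the plot of levels by subunit shows. The counted length belongs to a single RefSeq transcript per gene, and it sets the scale of each RPKM. PSMA5 (3746 bases counted) and PSMA3 (998) had 82.1 and 86.4 CPM but 21.9 and 86.6 RPKM. PSMB2 (4743) and PSMB1 (917) had 199 and 228 CPM but 41.9 and 248.8 RPKM. PSMB7 (626) lay above PSMB6 (872) in RPKM and below it in CPM. In CPM the alpha ring still ran from 82.1 for PSMA5 to 301 for PSMA6.

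**Figure D1:**
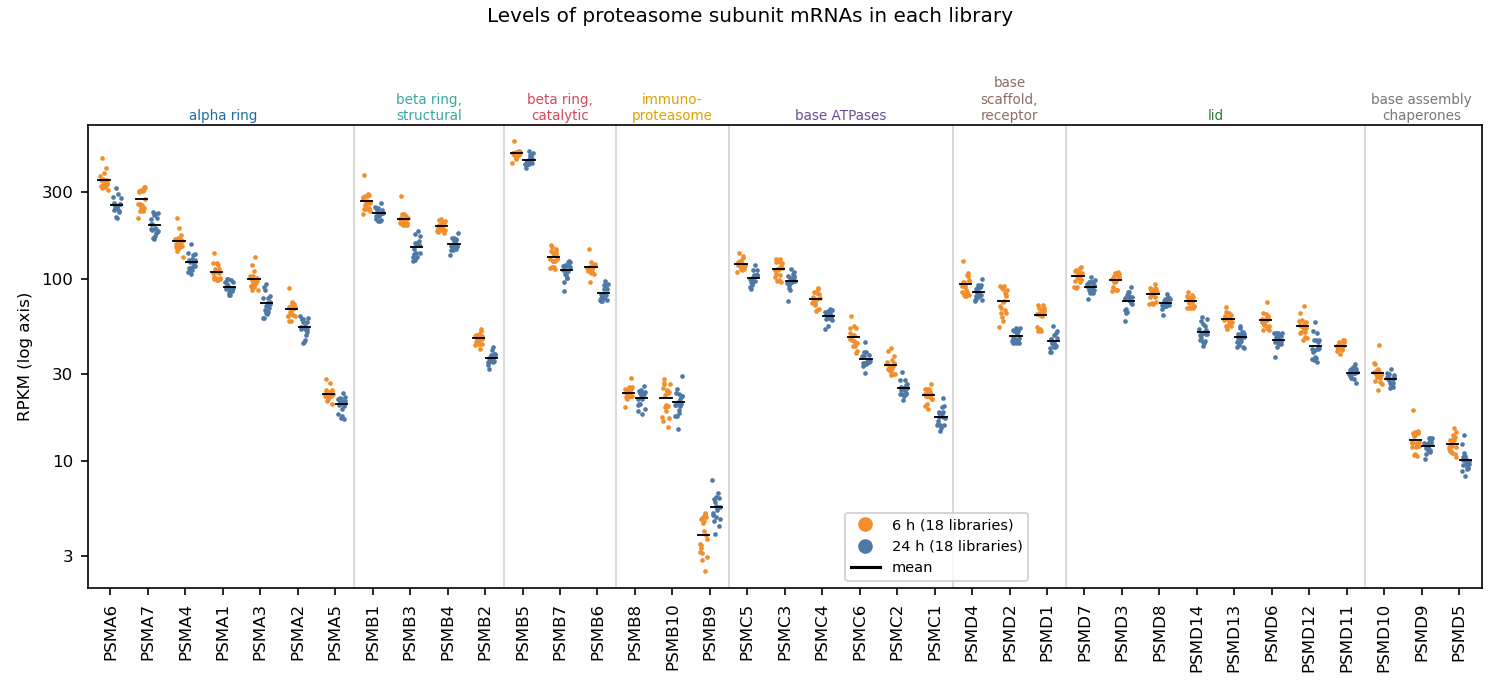
RPKM (log axis) of each of the 37 subunits, ordered by class and by mean, with a point for each of 18 libraries at 6 h (orange) and 18 at 24 h (blue) and a line at the mean. PSMB5 is the highest at 468 RPKM and PSMB9 the lowest at 4.74, and PSMB9 is the only subunit whose 24 h points sit clearly above its 6 h points.

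Most subunit mRNAs were lower at 24 h than at 6 h. Over all 6 conditions (18 libraries against 18, edgeR quasi-likelihood test), 33 of 37 members fell (89.2%), against 31% of the 12046 genes tested. PSMB9 was the single member that rose, against 30.1% of genes tested. The median log2 fold change was −0.33 over the members and −0.01 over all genes, a fall of 20.3% at the median member. Falls ran from 0.12 to 0.63 on the log2 scale. PSMB8, PSMB10 and PSMD9, an assembly chaperone with −0.11 (SE 0.06, adjusted p = 0.10), did not pass the threshold. Falls passed in 7 of 7 alpha subunits, 4 of 4 structural and 3 of 3 catalytic beta subunits, 6 of 6 ATPases, 3 of 3 scaffold and receptor subunits, 8 of 8 lid subunits, 2 of 3 assembly chaperones and 0 of 3 immunoproteasome subunits. Time of treatment, time in serum-free medium and time after seeding cannot be told apart in this comparison. The study made 3 independent cultures, and the test treats as independent libraries that may share a culture. Its p values for single members, here and below, carry this limit. With the replicate number as a block, 34 members passed, risen or fallen.

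PSMD2 (RPN1, a docking subunit for ubiquitin-like proteins, chromosome 3, 184016886 to 184026842 in hg19) had the largest fall. Its level ran from 167 to 280.4 CPM at 6 h (median 229.6) and from 135 to 165 at 24 h (median 145). Every library at 24 h lay below every library at 6 h, and the log2 fold change was −0.63 (SE 0.06, adjusted p = 2.2e-10). The 6 h libraries of PSMD2 were spread by replicate number, with 167 to 207 CPM in replicate 1, and the log2 fold change within replicates 1, 2 and 3 was −0.42, −0.70 and −0.74.

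PSMD14 (RPN11, the lid enzyme that cuts ubiquitin chains from substrates, chromosome 2, 162164786 to 162268228) followed. It ran from 118 to 146 CPM at 6 h (median 128) and from 73.5 to 107 at 24 h (median 85.6), again without overlap. The log2 fold change was −0.56 (SE 0.04, adjusted p = 6.3e-13), and −0.53, −0.65 and −0.51 within the 3 replicate numbers.

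PSMB3 (structural beta subunit, chromosome 17, 36908966 to 36920484) ran from 157 to 227 CPM at 6 h (median 168) and from 99.3 to 146 at 24 h (median 122). Its groups did not overlap either, and the log2 fold change was −0.51 (SE 0.05, adjusted p = 1.7e-11). PSMD1 (RPN2, the other large scaffold of the base) ran from 167 to 233 CPM at 6 h (median 209) and from 127 to 179 at 24 h (median 143), with a log2 fold change of −0.49 (SE 0.05). PSMA7 (alpha ring) ran from 222 to 329.7 CPM at 6 h (median 274) and from 171 to 239 at 24 h (median 196), with a log2 fold change of −0.48 (SE 0.06). The last 2 overlapped between times in a few libraries. All libraries of 24 h lay below all of 6 h for 6 members, namely PSMB3, PSMB4, PSMD2, PSMD6, PSMD11 and PSMD14, 16.2% of the members against 2.24% of the genes tested.

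The catalytic beta subunits fell to different extents. PSMB6 ran from 83.8 to 128 CPM at 6 h (median 101) and from 65.7 to 84.5 at 24 h (median 71.5), and its log2 fold change was −0.46 (SE 0.04). PSMB7 ran from 70.4 to 95.7 CPM at 6 h (median 80.9) and from 53.6 to 78.5 at 24 h (median 71.4), with −0.24 (SE 0.05). PSMB5 ran from 406 to 536 CPM at 6 h (median 462) and from 382 to 476 at 24 h (median 418), with −0.12 (SE 0.03, adjusted p = 0.0017). The 95% intervals were −0.54 to −0.38 for PSMB6, −0.33 to −0.15 for PSMB7 and −0.19 to −0.06 for PSMB5, so the interval of PSMB6 did not meet those of the others. The fall of PSMB5 did not pass in replicate 1 alone (−0.18, adjusted p = 0.051) in replicate 3 alone (−0.07, adjusted p = 0.18) or in the later library series (−0.07, adjusted p = 0.16), and that of PSMB7 did not pass in replicate 1 alone (−0.27, adjusted p = 0.055).

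**Figure D2:**
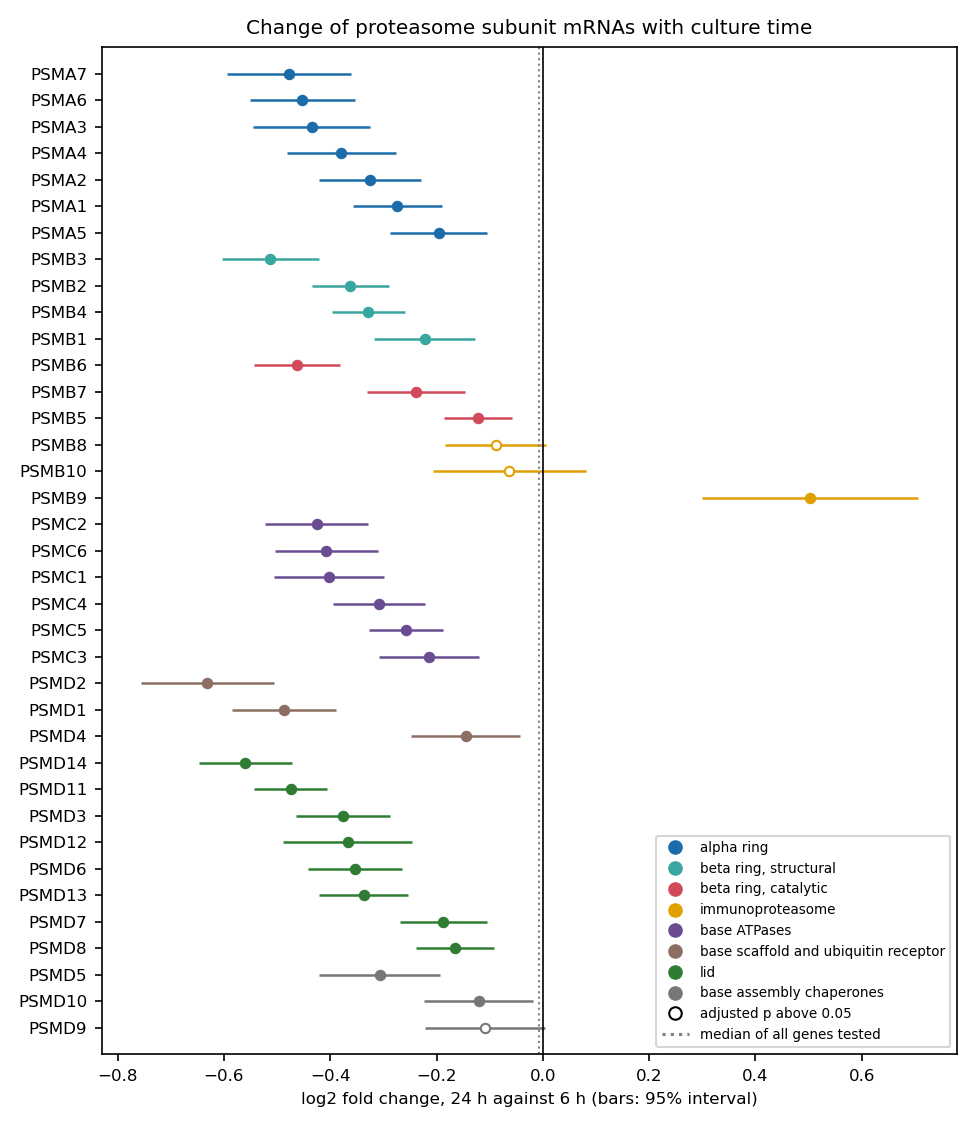
Log2 fold change at 24 h against 6 h (18 libraries each) with 95% intervals for each subunit, coloured by class, with open points for adjusted p above 0.05 and a dotted line at the median of all genes tested. The 33 filled points on the left lie between −0.63 and −0.12, PSMB9 lies alone on the right at 0.50, and PSMB8, PSMB10 and PSMD9 are open.

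The fall was also seen in single libraries. The log2 CPM of each member was centred on its mean over the 36 libraries and averaged over the 37 members. This mean level ran from 0.07 to 0.32 over the 18 libraries at 6 h and from −0.28 to −0.03 over the 18 at 24 h, so the times did not overlap. The highest library was replicate 1 of DHA at 6 h, the next being at 0.21, and the lowest was replicate 2 of Ctrl at 24 h. Within replicate numbers 1, 2 and 3, 35, 36 and 34 of 37 members had a log2 fold change below 0, with medians of −0.33, −0.37 and −0.30. Fitted alone, the libraries of replicates 1, 2 and 3 gave 23, 33 and 30 members past the threshold, against 38.8%, 50.4% and 49.2% of all genes tested in the same fits. The library numbers in the labels fall into an earlier and a later series, and 35 and 30 members passed within these, against 55.2% and 52.3% of genes. The averages serve as a description, since members share each library.

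**Figure D3:**
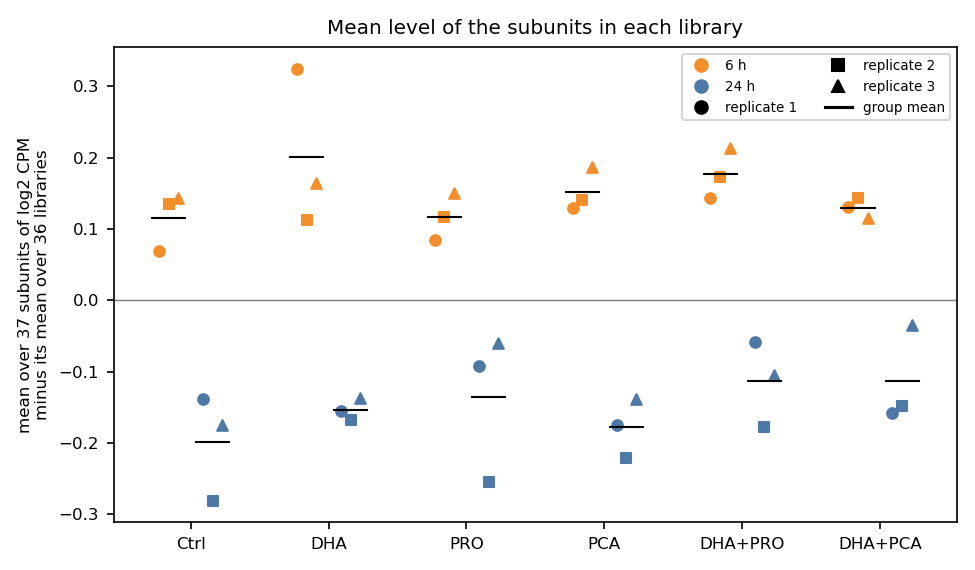
Mean over the 37 subunits of log2 CPM centred on each subunit's mean over 36 libraries, for each library by condition, with orange for 6 h, blue for 24 h, symbols for the replicate number and a line at each group mean. All 18 libraries at 6 h lie above 0 and all 18 at 24 h below 0, in each condition.

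Within single conditions (3 libraries against 3 in the model of all 36), 20 members fell with Ctrl, against 11.9% of genes tested, and PSMB9 rose, against 14.1%. With DHA 24 members fell (background 8.87%), with PCA 22 (13%), with DHA + PRO 19 (9.46%), with DHA + PCA 14 (8.25%) and with PRO 12 (5.43%). The median log2 fold change over members lay between −0.36 (Ctrl) and −0.25 (PRO). Of the 37 members, 7 fell in all 6 conditions, namely PSMB2, PSMB3, PSMB4, PSMB6, PSMD2, PSMD11 and PSMD14, against 2.68% of genes tested. In at least 1 condition 30 members fell, against 20.5% of genes, and 7 fell in none. The counts with PRO and DHA + PCA moved with single libraries, and the count with PRO was 19 in a model with the replicate number as a block. Without replicate 3 of PRO at 6 h or replicate 2 of PRO at 24 h, 5 members passed. Without replicate 2 of DHA + PCA at 6 h 9 passed, and without replicate 1 or replicate 2 at 24 h 7 passed. Without replicate 2 of DHA + PRO at 24 h, the deepest library, 11 passed. Differences between these counts were not tested. Leaving out a library or adding the block refits every gene. The shares of all genes called in these refits are not given here, so the moves cannot be set against the genes as a whole.

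In Ctrl, PSMD2 had 167, 217 and 280.4 CPM at 6 h and 139, 135 and 159 at 24 h (replicates 1, 2 and 3). The groups did not overlap, and the log2 fold change of −0.61 passed (SE 0.16, adjusted p = 0.0038), though not without replicate 3 of 6 h (−0.41, adjusted p = 0.062). Over the 6 conditions the log2 fold change of PSMD2 lay between −0.67 and −0.61. The exact two-sided permutation test of 3 libraries against 3 gave its smallest possible p of 0.1 for PSMD2 and PSMD14 in each condition. This follows from the lack of overlap between the times and adds no support. For PSMB9 the same test gave 0.1 with Ctrl, DHA + PRO and DHA + PCA, 0.2 with DHA and with PCA, and 0.3 with PRO.

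Among the immunoproteasome subunits PSMB9 rose. PSMB9 (beta 1i, chromosome 6, 32821938 to 32827628) ran from 2.61 to 5.42 CPM at 6 h (median 4.01) and from 4.15 to 8.22 at 24 h (median 5.79). The times overlapped in part, and the log2 fold change was 0.50 (SE 0.10, adjusted p = 8.5e-05), with 0.58, 0.35 and 0.52 within the 3 replicate numbers. In replicate 1 alone it did not pass (0.60, adjusted p = 0.051). In Ctrl PSMB9 had 3.32, 3.68 and 3.62 CPM at 6 h and 8.22, 5.25 and 5.39 at 24 h, so replicate 1 at 24 h was the highest library. The log2 fold change in Ctrl was 0.82 (SE 0.26, adjusted p = 0.016), and it was 0.59 without that library (adjusted p = 0.12) and 0.77 without replicate 1 at 6 h (adjusted p = 0.063). In the other conditions it lay between 0.18 with PCA and 0.62 with DHA + PRO and did not pass.

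PSMB8 (beta 5i) ran from 26.7 to 38.6 CPM at 6 h (median 31.6) and from 24.5 to 34.95 at 24 h (median 31.1), and its log2 fold change of −0.09 did not pass (SE 0.05, adjusted p = 0.11), though it did in the earlier library series alone (−0.16, adjusted p = 0.044). PSMB10 (beta 2i) ran from 15.4 to 28.2 CPM at 6 h (median 23.4) and from 14.99 to 29.3 at 24 h (median 20.8), with −0.06 (SE 0.07, adjusted p = 0.47). Its replicate numbers differed, with 0.15, −0.33 and 0.03, and it passed in replicate 2 alone (−0.34, adjusted p = 0.0058). For both, the levels at the 2 times covered nearly the same range.

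Each immunoproteasome subunit was then set against the constitutive subunit whose place it takes, as a ratio of RPKM values. PSMB9 stood at 3.44 ± 0.88% of PSMB6 at 6 h (SD, n = 18) and at 6.65 ± 1.27% at 24 h. The ratio was higher at 24 h in 18 of 18 pairs of the same condition and replicate number, by 0.97 on the log2 scale. A two-sided permutation test of 18 libraries against 18 gave p = 2e-05, the smallest that 100000 resamples can give, and 6e-05 after adjustment over the 3 ratios. PSMB10 stood at 16.9 ± 3.34% of PSMB7 at 6 h and at 19.1 ± 3.17% at 24 h, higher in 13 of 18 pairs (p = 0.038, adjusted p = 0.058, permutation test). PSMB8 stood at 4.83 ± 0.39% of PSMB5 at 6 h and at 4.94 ± 0.43% at 24 h, higher in 11 of 18 pairs (p = 0.46 before and after adjustment, permutation test). The 3 pairs follow from the subunits' places in the ring, and the test was added after the changes with time were seen. It shuffled libraries without regard to condition or replicate number. The study made 3 independent cultures, so the p values treat as independent libraries that may share a culture. The ratio of PSMB9 to PSMB6 joins the rise and the fall given above, so its p adds no separate evidence.

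**Figure D4:**
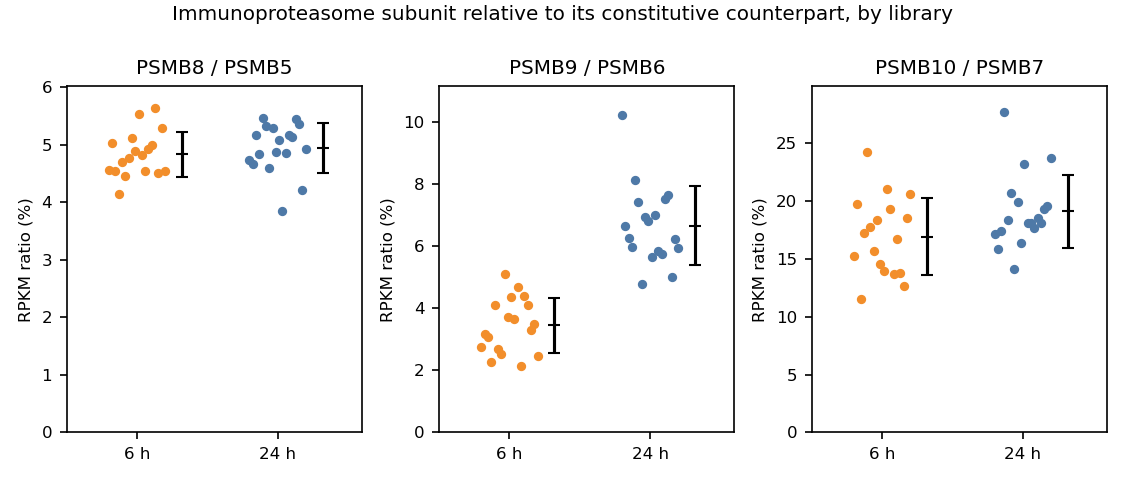
RPKM of PSMB8, PSMB9 and PSMB10 as a percentage of PSMB5, PSMB6 and PSMB7 in each of 18 libraries at 6 h (orange) and 18 at 24 h (blue), with mean and SD as black bars. The PSMB9 to PSMB6 ratio moves from a mean of 3.44% to 6.65% with little overlap, while the points of the other ratios overlap over most of their range.

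No subunit passed the threshold under any treatment. At 6 h, 0 of 37 members were called against Ctrl in each treatment that held DHA (background 0.0168% each), and 0 with PRO and with PCA (background 0%). The count with an unadjusted p under 0.05 was 1 with DHA and 0 with each of the others, against 0.724% to 3.15% of all genes. At 24 h, 0 of 37 were called with DHA (background 0.193%), PRO (0%), PCA (0%), DHA + PRO (0.395%) and DHA + PCA (0.286%). Here 1, 0, 1, 5 and 3 members had an unadjusted p under 0.05, against 5.95%, 6.02%, 3.82%, 8% and 7.46% of all genes. The 5 members with DHA + PRO are 13.5% of the 37. The DESeq2 Wald test also called 0 in each of these 10 comparisons. Over the 370 fits of a member the 95% intervals reached from −0.74 to 1.02 on the log2 scale, and the median SE was 0.12 at 6 h and 0.11 at 24 h.

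The 3 treatments with DHA were therefore pooled against the 3 without (9 libraries against 9). Again 0 of 37 members passed at 6 h (background 0.202%) and at 24 h (background 1.23%), with 0 and 1 member at an unadjusted p under 0.05 (2.88% and 9.88% of all genes) and 0 calls by the DESeq2 Wald test. The largest distance of a 95% interval bound from 0 was 0.41 at each time, and the median SE was 0.07 and 0.06. At both times 32 of 37 members had a value above 0, against 50.2% and 52.5% of all genes, and the median was 0.04 and 0.03 on the log2 scale. At 6 h 21 members were above 0 without replicate 1 of DHA, the library with the highest mean subunit level, with a median of 0.02. At 24 h 25 were above 0 without replicate 2 of Ctrl, the library with the lowest mean, with a median of 0.02.

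PSMB10 had the lowest p at 24 h, with a pooled difference of 0.23 (95% interval 0.05 to 0.41, adjusted p = 0.33). It was followed by PSMC1, an ATPase, with 0.14 (−0.01 to 0.29) and PSMA3, an alpha subunit, with 0.13 (−0.02 to 0.28). At 6 h the lowest p values belonged to PSMB6 with 0.10 (−0.02 to 0.23), PSMD4, a ubiquitin receptor, with 0.11 (−0.05 to 0.27) and PSMA7 with 0.11 (−0.06 to 0.28). PSMB10 in Ctrl had 20.3, 17.8 and 20.3 CPM at 24 h, and with DHA it had 23.8, 17.7 and 24.9, with DHA + PRO 21.9, 20.6 and 22.8, and with DHA + PCA 22.9, 22.9 and 29.3. It overlapped Ctrl with DHA and lay above Ctrl in both co-treatments. The pooled difference of PSMB5 was 0.06 at 6 h (−0.04 to 0.16) and 0.02 at 24 h (−0.07 to 0.11).

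Libraries of treatment and Ctrl did not overlap at 24 h for 3 members with DHA (background 10.8%), 2 with PRO (8.53%), 3 with PCA (10.2%), 10 with DHA + PRO (27.0% of members, background 14.9%) and 6 with DHA + PCA (16.2%, background 12.6%). With DHA + PRO 8 of these lay above Ctrl (PSMB2, PSMB3, PSMB5, PSMB8, PSMB10, PSMC1, PSMC5 and PSMD8) and 2 below (PSMA2 and PSMD10). These comparisons share the 3 Ctrl libraries, of which replicate 2 had the lowest mean subunit level. Adding PRO or PCA to DHA was tested directly as well. At each time 0 of 37 members passed for DHA + PRO or DHA + PCA against DHA (background 0% each), with 2 and 0 members at an unadjusted p under 0.05 at 6 h (1.42% and 1.27% of all genes) and 4 and 2 at 24 h (4.43% and 2.32%), and with 0 calls by the DESeq2 Wald test. The pooled DHA difference did not pass for a change with time in any member either (0 of 37, background 0%, 0 at an unadjusted p under 0.05 against 3.05% of all genes, 0 by the Wald test), and the largest interval bound was 0.50 from 0.

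**Figure D5:**
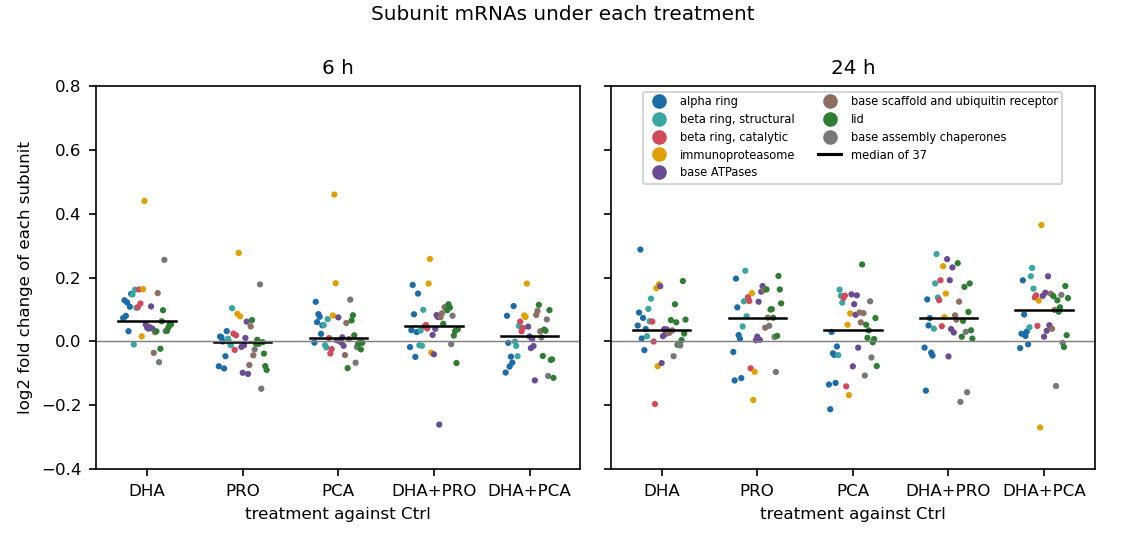
Log2 fold change of each of the 37 subunits against Ctrl for the 5 treatments at 6 h (left) and 24 h (right), 3 libraries against 3, coloured by class, with a line at the median of the 37. Medians lie between −0.0027 and 0.06 at 6 h and between 0.03 and 0.10 at 24 h, and no point passed the threshold.

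Other genes of the pathway were read from a list of 37 tested genes outside the rule. At 24 h against 6 h, 5 of them rose and 19 fell, with a median of −0.13. The 24 called are 64.9% of the list, near the 61% of all genes tested in either direction. By direction the list differed from all genes, of which 31% fell and 30.1% rose. Among the activators, which cap the core particle in place of the regulatory particle, PSME4 fell by 0.72, PSME3 by 0.28, PSME2 by 0.22 and PSME1 by 0.14 on the log2 scale (SE 0.04 to 0.05), while the inhibitor PSMF1 rose by 0.09 (SE 0.03). Of 6 assembly factors 3 fell, against 31% of all genes tested. These were the core particle maturation factor POMP, which fell by 0.44 (SE 0.06), PSMG4 by 0.27 (SE 0.07) and PSMG2 by 0.24 (SE 0.08). Of the associated deubiquitinases UCHL5 fell by 0.21 (SE 0.06), and USP14 had −0.01 and did not pass.

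NFE2L1 rose by 0.28 on the log2 scale (SE 0.05, adjusted p = 1.5e-05), and NFE2L2 (NRF2) had 0.02 (SE 0.04, adjusted p = 0.71). VCP, the ATPase that extracts NFE2L1 from the endoplasmic reticulum, fell by 0.26 (SE 0.04). Of 10 ubiquitin and shuttle genes 1 rose, 6 fell and 3 were not called, with a median of −0.12. Of all genes tested 30.1% rose and 31% fell. The genes of this class named next all fell, and the gene that rose is not named here. RPS27A, which encodes a ubiquitin fusion protein, fell by 0.13 (SE 0.05), and the shuttle factors UBQLN1, RAD23B and UBQLN2 fell by 0.31, 0.27 and 0.21. Among neighbours of the immunoproteasome in antigen processing, the peptide transporter genes TAP1 and TAP2 fell by 0.28 (SE 0.07) and 0.30 (SE 0.09), unlike PSMB9, which shares a promoter region with TAP1. Within replicates 1, 2 and 3 the log2 difference was −0.43, −0.15 and −0.29 for TAP1 and 0.09, −0.46 and −0.46 for TAP2, so TAP2 was not lower at 24 h in replicate 1. IRF1 and NLRC5, activators of genes of antigen presentation, rose by 0.34 (SE 0.09) and 0.42 (SE 0.11). In the treatment comparisons, pooled ones included, 0 of the 37 were called by edgeR, with at most 2 at an unadjusted p under 0.05 in any of them.

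Members also varied together between libraries of the same group. The correlation of deviations of log2 CPM from the group means had a median of 0.22 over the 666 pairs of members, and 69.1% of pairs were positive, while the median over all pairs of tested genes was near 0. With the replicate means of each time removed the median was 0.23. Without replicate 2 of DHA + PRO at 24 h it was 0.20. The median was not computed without replicate 1 of DHA at 6 h. That library had a mean subunit level of 0.32, against 0.11 and 0.16 in its group. These points share libraries and their depth, and the correlation is a description. PSMC2, PSMC5 and PSMD1 overlap genes on the opposite strand (SLC26A5, FTSJ3 and HTR2B). A strand setting of the counting is not given in the sources used here, so reads of the overlapping parts cannot be assigned with certainty.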

How the data were processed

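Gene counts of 36 HepG2 libraries were taken from the deposited table. The authors enriched mRNA, prepared TruSeq v2 libraries, used STAR for alignment to hg19 and counted per RefSeq gene with the iRNA-seq pipeline, and the deposited counts were not normalized. The deposited table also gives, in other units, each gene's position and the counted length in bases, used for RPKM. Starts in the table count from 0, and 1 was added. No molecular identifiers are described, so counts are of reads.

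Counts were analysed with edgeR 4.0.16 in R 4.3.3 (TMM, filterByExpr, quasi-likelihood F test), per time for treatments (11872 genes at 6 h and 11893 at 24 h) and over all 36 libraries for time (12046 genes). Benjamini-Hochberg adjustment covered every gene in the fit. A gene was called when the adjusted p was 0.05 or lower and its average log2 CPM exceeded 0. The SE is the log2 fold change divided by the square root of F, and 95% intervals are normal. The scripts were tested on simulated counts. DESeq2 1.42.0, other scalings, no filter, a replicate block, the series of library numbers and leaving out each library were the alternatives. Single values used exact permutation tests, and ratios a permutation test in scipy 1.17.1.

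Groups and replicate numbers came from the sample labels, and no library was left out. No pair among 630 was a duplicate (lowest chi-square per degree of freedom 1.89). Members, classes, the pathway list and the comparisons were chosen with earlier results of these data known. Values are given for the 5 largest falls and rises with time, the catalytic and immunoproteasome subunits, the 3 lowest p in each pooled comparison, and the highest and lowest level per class. Other members named were chosen after their values were seen. Some genes of the pathway list are counted but not reported by name here. Promoters are from RefSeq on GRCh38.p14, with the first start used for 6 members that have several, and positions of the 2 builds were not combined. Figures were drawn with matplotlib 3.10.9.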

Additional observations from a re-analysis of the deposited data

How the results depend on the processing

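For 24 h against 6 h over all conditions, 34 members passed, risen or fallen, with TMM, DESeq2 size factors, the DESeq2 Wald test, the replicate block and the library series as a factor. Leaving out single libraries gave 33 to 35, and medians from −0.35 to −0.32. Fits limited to fewer libraries were chosen after seeing the data. The median moved to −0.38 in replicate 2, −0.28 in replicate 3 and −0.27 in the later series, which hold fewer libraries. Leaving out single libraries gave 15 to 21 members in Ctrl, 16 to 27 with DHA, 5 to 14 with PRO, 17 to 23 with PCA, 11 to 20 with DHA + PRO and 7 to 12 with DHA + PCA, and 0 in each treatment comparison. Each of these fits also changes the calls of other genes, and the shares of all genes in them are not given here.

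The replicate number from the labels was tried as a block. Deviations of libraries with the same number had a mean correlation of 0.24 at 6 h and 0.14 at 24 h, against −0.12 and −0.07 for other numbers, but 9 and 13 of 45 pairs were at or under 0.1. Replicate 1 libraries lie in the earlier series and replicate 3 libraries in the later one. Those of replicate 2 lie in the earlier series, except that of DHA + PRO at 6 h. The time comparison within DHA + PRO is therefore partly confounded with series. The library labels carry the same run of sample numbers for equal replicate numbers in every condition. These labels and the mean correlations go with a culture shared by equal numbers, although no label states it outright. The model without the block was kept as the main one, and it treats libraries of equal number as independent. With the replicate block, 19 members passed within PRO instead of 12, and the other conditions gave 24 (Ctrl), 28 (DHA), 26 (PCA), 23 (DHA + PRO) and 17 (DHA + PCA). Under the block no other count of members moved by over 1.5 times. The shares of all genes called with the block are not given here, so these counts cannot be set against the genes as a whole.

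Directions were followed for selected members only, namely catalytic and immunoproteasome subunits, the largest changes with time and the lowest pooled p. Among these they turned only in comparisons that the member had not passed. With time, PSMB10 had 0.13 in replicate 1, 0.031 in replicate 3 and 0.014 in the later series, and PSMB8 had 0.025 in replicate 3 and 0.038 in the later series, while PSMB10 passed as lower in replicate 2 (−0.34, adjusted p = 0.0058) and PSMB8 in the earlier series (−0.16, adjusted p = 0.044). In the pooled DHA comparisons with single libraries left out, PSMB9 at 24 h lay between −0.036 and 0.10, PSMB6 between −0.0028 and 0.045 and PSMB7 between −0.010 and 0.073, and PSMB9 at 6 h between −0.16 and 0.027. Depth limits PSMB9 most, with the fewest counts and the largest SE with time among the members.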
